A study of Homo sapiens with 6 samples.

Results

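The neutrophil-attracting CXC chemokines carry the motif Glu-Leu-Arg (ELR) in front of the CXC cysteines and signal through the G protein-coupled receptors CXCR1 and CXCR2. The genes studied here were 9 in number, looked up by symbol in an expression table of 17039 genes: the 7 ligands CXCL1, CXCL2, CXCL3, CXCL5, CXCL6, CXCL8 and PPBP of the chromosome 4 cluster, and the 2 receptors. Rows of 5 ligands were analysed (CXCL1, CXCL2, CXCL3, CXCL5 and CXCL8), and 4 of these had a mean of at least 0.1 FPKM over the 6 libraries and entered the fit over all genes. CXCL6, PPBP, CXCR1 and CXCR2 were not analysed here. FPKM is the number of fragments scaled to transcript length and to the number of mapped fragments, so levels of different genes can be set side by side. The genes were chosen by their lower FPKM in 231-BR cells in earlier results of these same 6 libraries, and their own values are therefore given as a description, without a test.

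Poly(A) RNA was sequenced from 3 libraries of MDA-MB-231 cells, an established human breast cancer line, and from 3 libraries of 231-BR cells, a variant of that line selected for growth in the brain. Both lines were grown in DMEM with 10% fetal bovine serum and antibiotics, and G418 at 200 μg/mL was added for 231-BR cells only, so that the line and the drug cannot be told apart. The 231-BR cells were a gift and the MDA-MB-231 cells were purchased, so stock and line cannot be told apart either. The labels call the samples of each line independent but do not say that they came from separate cultures, and any p-value below measures the spread between these libraries, which may be technical.

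Between 10785 and 11178 genes reached 1 FPKM in a library, and across genes the log2 values of any pair of libraries from 1 line correlated with r of at least 0.997. Both lines carried keratins 8 and 18, EPCAM, vimentin and fibronectin (FN1). Keratin 19 (KRT19) was at 90.9 ± 3.32 FPKM in 231-BR cells against 2.90 ± 0.332 in MDA-MB-231 cells (SD, n = 3 per line), and the mesenchymal cadherin CDH2 was at most 0.16 FPKM in any library. The epithelial cadherin CDH1, a defining marker of epithelium, was at most 0.03 FPKM in any library. Of 15 listed markers of leukocytes, platelets, endothelium and fibroblasts, 11 had values and none exceeded 0.48 FPKM. PTPRC, the pan-leukocyte CD45 gene, was between 0 and 0.04 FPKM. The summed leukocyte markers ranged from 0.09 to 0.31 FPKM in 231-BR libraries and from 0.03 to 0.05 FPKM in MDA-MB-231 libraries.

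ELR chemokines are small secreted proteins that draw neutrophils out of the blood along a gradient and promote the growth of blood vessels. Epithelial and tumour cells make little of them at rest and induce them quickly after interleukin-1, tumour necrosis factor or Toll-like receptor signals, mainly through NF-kB, which binds kB sites in their promoters. Their mRNAs are short-lived because AU-rich elements recruit decay factors. CXCL8 (interleukin-8) activates CXCR1 and CXCR2, whereas CXCL1, CXCL2 and CXCL3 (the GRO chemokines) act mainly on CXCR2.

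In the GENCODE release 29 annotation of GRCh38, the ligands lie on the long arm of chromosome 4 within 359 kb, from CXCL8 (chr4:73740506-73743716, plus strand) to CXCL2 (chr4:74097035-74099293, minus strand). CXCL1 is at chr4:73869393-73871242 on the plus strand, and CXCL5 (chr4:73995642-73998779) and CXCL3 (chr4:74036589-74038807) are on the minus strand. The span holds 9 protein-coding genes, which besides the 7 ligands are the platelet factor genes PF4 and PF4V1. Promoters are shown because ligands of this family are known as NF-kB targets. A link between the promoter letters and the difference between the lines was not tested. All 9 genes matched the RefSeq promoter table of GRCh38.p14. Starts of transcription below are those of RefSeq. GENCODE release 29 places the start of CXCL1 at the same base, and those of CXCL8, CXCL2, CXCL5 and CXCL3 63, 98, 102 and 118 bases further upstream, so that bases counted here as promoter lie partly within the GENCODE genes. For CXCL1 the 120 bases before the start are shown, and for the other ligands the 30 bases around the kB letters, all written 5′ to 3′ on the strand of the gene, with the kB letters searched for in capitals. They are chr4:73869273-73869392 (plus) for CXCL1, chr4:74099253-74099282 (minus) for CXCL2, chr4:74038748-74038777 (minus) for CXCL3, chr4:73740468-73740497 (plus) for CXCL8 and chr4:73998748-73998777 (minus) for CXCL5.
CXCL1: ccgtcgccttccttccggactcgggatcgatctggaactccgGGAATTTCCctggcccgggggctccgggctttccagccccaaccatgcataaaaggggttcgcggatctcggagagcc
CXCL2: tggagctccgGGAATTTCCctggcccggga
CXCL3: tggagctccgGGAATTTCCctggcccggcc
CXCL8: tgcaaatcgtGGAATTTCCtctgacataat
CXCL5: atgagttcagGGAATTTCCccagcatccca

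The GRO promoters were near copies of each other over the 120 bases before the RefSeq start. In global alignments 93.4% of the columns were identical between CXCL1 and CXCL2, 90.8% between CXCL1 and CXCL3 and 88.4% between CXCL2 and CXCL3, whereas CXCL8 matched CXCL1 in 46.7% of the columns. The 9 letters GGAATTTCC, searched on both strands in the 250 bases before the start, were found in 6 of the 9 genes (CXCL1, CXCL2, CXCL3, CXCL5, CXCL6 and CXCL8) and in 145 of all 35116 promoters of that length (0.413%). Their first base lay 77 or 78 bases before the start in the GRO genes, 91 in CXCL8 and 90 in CXCL5. The same letters with a further G in front were found in 5 of the 9 genes, without CXCL8, and in 0.142% of promoters.

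The AP-1 letters TGACTCA were found in CXCL8 alone of the 9 genes, with the first base 137 bases before the start, and in 4.20% of all promoters. The GC box GGGGCGGGG was found in CXCL1, CXCL3 and CXCL6, against 15.1% of all promoters. The C/EBP letters TTGCNNAA were found in CXCL2 and PPBP, against 9.05%. The TATA letters TATAAA were found in CXCL8 and PPBP, against 10.7%, and CATAAAA, a sequence chosen after the promoters were read, was found in CXCL1, CXCL2 and CXCL3, against 3.40%. A match describes these letters only, and binding was not measured.

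Summed expression of the ELR ligands was high in MDA-MB-231 cells, mainly through CXCL1 and CXCL8, and low in 231-BR cells. The summed FPKM of the ligands was 187, 181 and 179 in the MDA-MB-231 libraries and 8.63, 9.87 and 9.80 in the 231-BR libraries. The sum was 19.3-fold lower in 231-BR cells (9.43 ± 0.697 against 182 ± 4.40 FPKM, SD, n = 3 per line), a log2 difference of -4.26 on the log2(FPKM + 0.1) scale used throughout. In RNA from a whole culture, fewer expressing cells and less mRNA per cell cannot be told apart. Over the 13465 genes tested, 2.90% were called lower in 231-BR cells and 8.07% higher (limma adjusted p under 0.05, absolute log2 difference over 1 and a mean of at least 1 FPKM in either line), and 1.77% were lower with a mean of at least 1 FPKM in both lines. A limma adjusted p under 0.05 alone was reached by 77.3% of the genes tested, so a small adjusted p does not by itself set a gene apart. The 4 ligands in the fit were among the genes called lower, 2 of them (CXCL1 and CXCL8) with at least 1 FPKM in both lines. Because the ligands were chosen for these same values, their counts only describe the choice, and nothing is read from setting them beside the shares of all genes.

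CXCL1 was the most expressed ligand of MDA-MB-231 cells, at 107, 103 and 106 FPKM. In 231-BR cells it was at 3.24, 3.26 and 3.93 FPKM. The libraries of the lines lay far apart and those within a line close together, and the mean was 30.3-fold lower in 231-BR cells (3.48 ± 0.393 against 105 ± 2.29 FPKM, SD, n = 3 per line), a log2 difference of -4.89. In rank of level, CXCL1 went from 733rd of 17039 genes in MDA-MB-231 cells to 9315th in 231-BR cells. Among the 11418 tested genes with a mean of at least 1 FPKM in either line, its decrease was the 17th largest. This rank, like that of CXCL8 below, depends on the pseudocount, which limits the log2 difference of genes near 0 in 231-BR cells. C1orf115, at 0.0033 FPKM in 231-BR cells against 3.01 in MDA-MB-231 cells, had a log2 difference of -4.91.

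CXCL8 was at 68.3, 67.0 and 61.3 FPKM in MDA-MB-231 cells and at 4.0, 4.95 and 4.85 FPKM in 231-BR cells. The lines did not overlap, and the difference was 14.2-fold (4.60 ± 0.522 in 231-BR against 65.5 ± 3.74 FPKM in MDA-MB-231, SD, n = 3 per line), a log2 difference of -3.81. This was the 36th largest decrease. In spite of it, CXCL8 was the most expressed ligand in 231-BR cells.

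CXCL3 and CXCL2 were expressed at a lower level. CXCL3 was at 6.28, 6.24 and 6.5 FPKM in MDA-MB-231 cells and at 0.55, 0.83 and 0.36 FPKM in 231-BR cells, a log2 difference of -3.30 (0.580 ± 0.236 against 6.34 ± 0.140 FPKM, SD, n = 3 per line). CXCL2 was at 5.84, 5.38 and 4.96 FPKM in MDA-MB-231 cells and at 0.84, 0.83 and 0.66 FPKM in 231-BR cells, a log2 difference of -2.65 (0.777 ± 0.101 against 5.39 ± 0.440 FPKM, SD, n = 3 per line). Neither gene overlapped between the lines, and the means were 10.9-fold and 6.94-fold lower in 231-BR cells. The 3 libraries of 231-BR cells spread widely for CXCL3, with a coefficient of variation of 40.8%, as compared with 13.0% for CXCL2 and 11.3% for CXCL1. The log2 values of these genes depend on the pseudocount: with 1 in place of 0.1 they were -2.23 and -1.85.

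CXCL5 (ENA-78) was close to 0 in both lines. It was at 0.02, 0.02 and 0.05 FPKM in MDA-MB-231 libraries and is listed at 0 in each 231-BR library, and no fold is given. Its promoter, shown above, holds the same kB letters as those of the 4 other ligands. The lack of overlap between the lines, with lower values in 231-BR cells, in each of the 5 ligands is part of what they were chosen for and supports nothing further. Of all genes tested, 33.5% were without overlap and lower in 231-BR cells, and 44.9% were without overlap and higher.

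**Figure D1:**
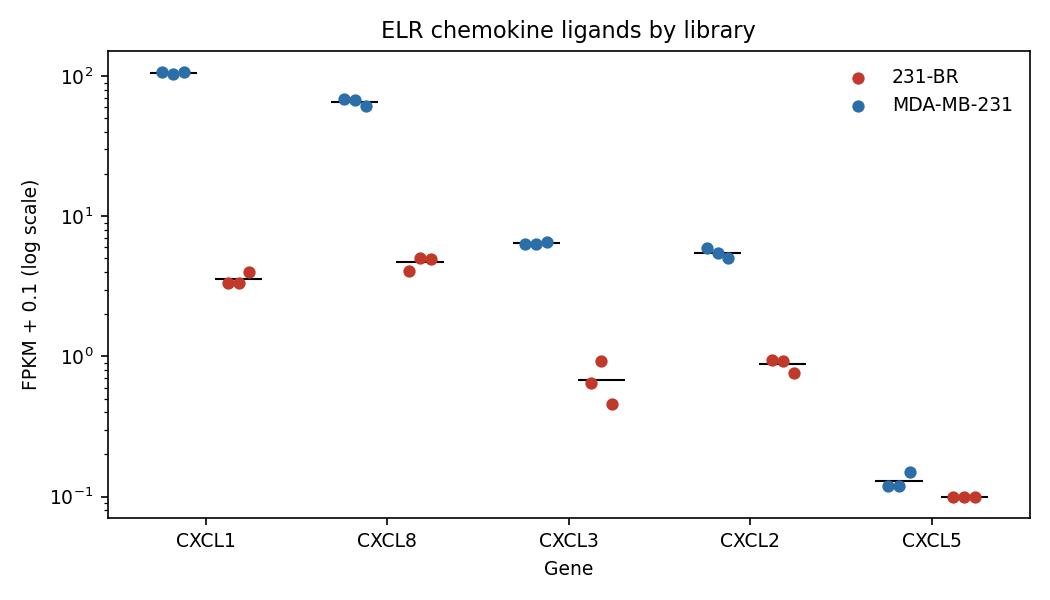
FPKM + 0.1 (log scale) of 5 ELR ligands, with a point per library and a black line at the mean of 3 libraries, MDA-MB-231 in blue and 231-BR in red. CXCL1 lies between 103 and 107 FPKM in MDA-MB-231 and between 3.24 and 3.93 FPKM in 231-BR, and CXCL5 lies at the bottom of the axis in both lines.

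The GRO genes are alike in sequence, and fragments of one could be counted for another. Among all 21 pairs of the 7 ligands, 1 pair, CXCL2 and CXCL3, had annotated transcripts that shared a stretch of 100 bases, the read length: 79 such stretches, which made up 5.0% of those of CXCL2 and 3.27% of those of CXCL3. Summed, CXCL2 and CXCL3 had 11.7 ± 0.344 FPKM in the MDA-MB-231 line against 1.36 ± 0.321 FPKM in the 231-BR line (SD, n = 3 per line), a log2 difference of -3.05. CXCL1 shared no stretch of that length with any other ligand. Only exact matches were counted, so fragments aligned with mismatches may still have been counted for another gene.

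The order of the ligands differed between the lines. In MDA-MB-231 cells it was CXCL1, CXCL8, CXCL3, CXCL2 and CXCL5, with no overlap between the libraries of neighbours in the order. In 231-BR cells it was CXCL8, CXCL1, CXCL2, CXCL3 and CXCL5, where CXCL2 and CXCL3 overlapped. The ratio of CXCL1 to CXCL8 was 1.57, 1.53 and 1.73 in the MDA-MB-231 libraries and 0.810, 0.659 and 0.810 in the 231-BR libraries, so that CXCL1 exceeded CXCL8 in every library of the former and in no library of the latter.

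As shares of the summed ligand FPKM, CXCL1 made up 57.7% ± 1.44 in MDA-MB-231 cells and 36.9% ± 3.59 in 231-BR cells, and CXCL8 35.9% ± 1.47 and 48.7% ± 2.08 (SD, n = 3 per line). CXCL2 made up 2.95% ± 0.176 and 8.29% ± 1.5. CXCL3 made up 3.47% ± 0.143 and 6.15% ± 2.38 (SD, n = 3 per line). The share of CXCL1 was thus the only one to be lower in every 231-BR library, apart from that of CXCL5.

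**Figure D2:**
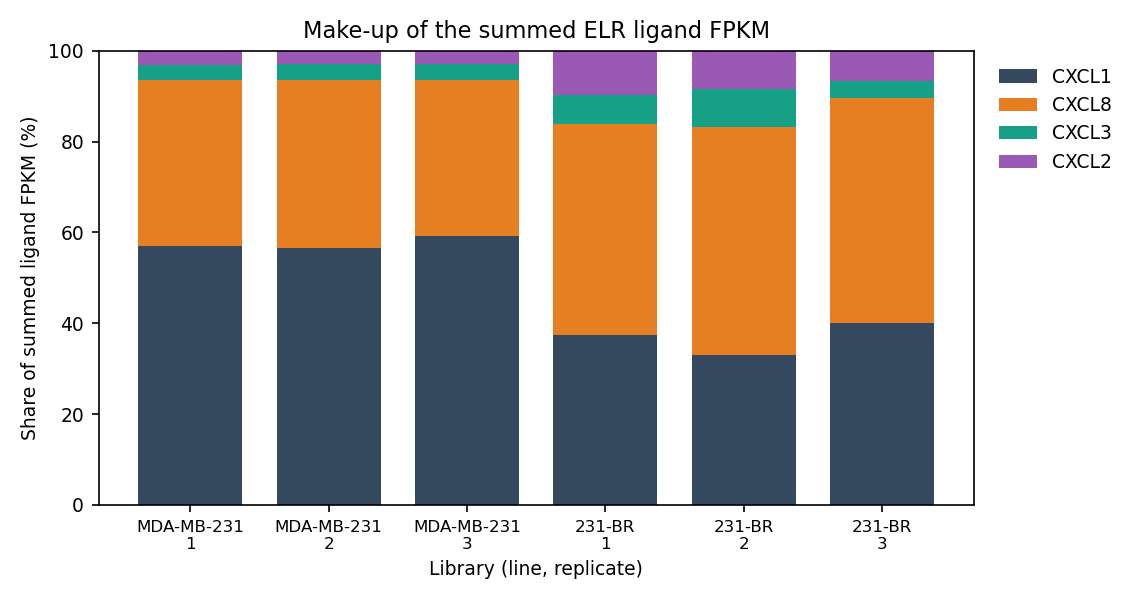
Share of each ligand in the summed ELR ligand FPKM (%, stacked, from 0 to 100) in each of the 6 libraries; CXCL5, at most 0.028%, is not drawn. CXCL1 takes 56.6% to 59.3% of the sum in MDA-MB-231 libraries and 33.0% to 40.1% in 231-BR libraries.

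Other CXC chemokines were nearly silent in both lines. Of the 10 listed, 5 were analysed (CXCL10, CXCL11, CXCL12, CXCL14 and CXCL16), and each was under 0.5 FPKM in every library. The only one tested was CXCL16, the ligand of CXCR6, at 0.183 ± 0.071 FPKM in 231-BR cells, as compared with 0.207 ± 0.050 in MDA-MB-231 cells (SD, n = 3 per line), with overlapping libraries. Among 8 other receptors that bind chemokines, 5 were analysed and 1 of the 2 tested was called. CXCR4, the receptor of CXCL12, was at 11.3, 10.8 and 11.4 FPKM in 231-BR cells and at 0, 0.02 and 0.05 FPKM in MDA-MB-231 cells, a log2 difference of 6.53 (standard error 0.143, limma adjusted p = 1.2e-10).

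The neighbourhood of the cluster was then examined, over the 10 protein-coding genes on either side of it. Of these 20 genes, 14 were tested, 2 rose and 1 fell, where 8.07% and 2.90% of all genes tested did so. The median log2 difference was 0.49, as compared with 0.08 over all genes tested. Both genes that rose encode ligands of the EGF receptor and lie on the side of CXCL2. EREG (epiregulin, chr4:74365143-74388751), 266 kb from CXCL2, was at 32.0, 32.1 and 32.5 FPKM in 231-BR cells and at 0.34, 0.28 and 0.30 FPKM in MDA-MB-231 cells, a log2 difference of 6.31 (standard error 0.069, limma adjusted p = 3.0e-12). AREG (amphiregulin, chr4:74445134-74455009), 346 kb from CXCL2, was at 8.57, 7.06 and 7.50 FPKM against 1.59, 1.12 and 1.32 FPKM, a log2 difference of 2.44 (standard error 0.118, limma adjusted p = 3.0e-08).

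PARM1 (prostate androgen-regulated mucin-like protein 1) fell to 0.797 ± 0.038 FPKM in 231-BR cells from 2.41 ± 0.182 in MDA-MB-231 cells (SD, n = 3 per line). Directly next to CXCL2, at 14.9 kb, MTHFD2L, a mitochondrial enzyme of folate metabolism, was at 6.38 ± 0.256 FPKM in 231-BR cells against 6.75 ± 0.339 in MDA-MB-231 cells (SD, n = 3 per line), and its libraries overlapped. On the side of CXCL8, ANKRD17 was at 29.2 ± 0.448 and 20.4 ± 0.728 FPKM and COX18 at 6.17 ± 0.330 and 3.39 ± 0.290 FPKM (SD, n = 3 per line), with log2 differences of 0.52 and 0.85, short of the criterion of 1. ADAMTS3 (0.86), RCHY1 (0.40) and THAP6 (0.47) were also short of it in log2 difference. The ends of RCHY1 and THAP6 overlap on opposite strands, and reads there may have been counted for either. The remaining tested flanking genes were under 1 FPKM in both lines.

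**Figure D3:**
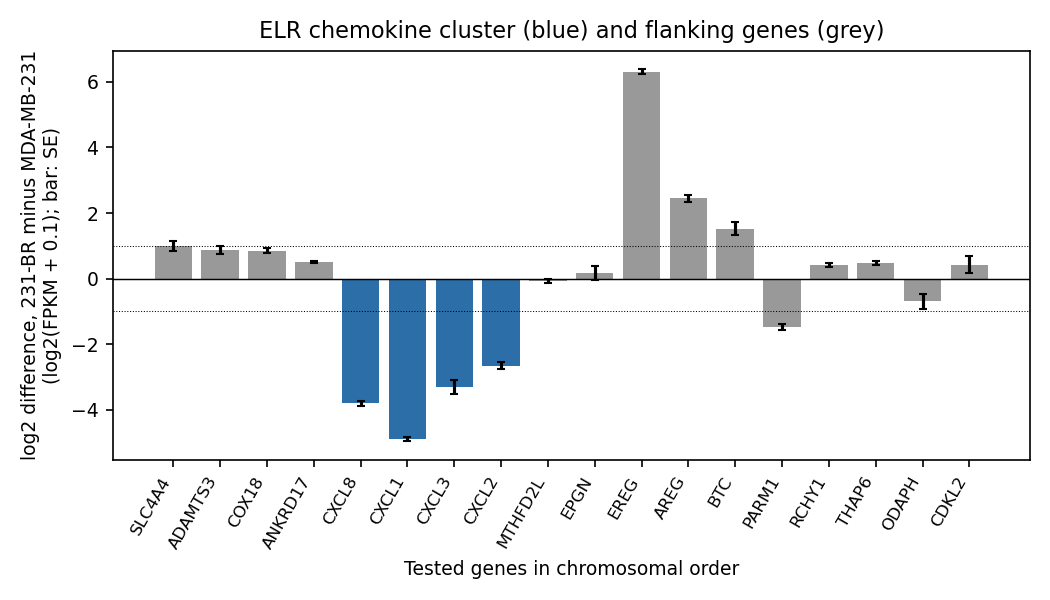
Log2 difference (231-BR minus MDA-MB-231, log2(FPKM + 0.1)) with its standard error for the tested genes in and beside the ELR cluster, in chromosomal order without scale. The 4 cluster genes in blue lie between -4.89 and -2.65, and EREG and AREG, in grey, reach 6.31 and 2.44.

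The list for the induction of ELR chemokines held 28 genes for cytokines, receptors and signalling proteins. It also held the interleukin-1 antagonist IL1RN and the decoy receptor IL1R2. Of the list, 22 genes were tested, 6 fell and 2 rose, with a median log2 difference of -0.35. Here and in the lists that follow, the shares of all genes tested are 2.90% that fell and 8.07% that rose, and the median of all is 0.08. The lists were drawn up with earlier results of these same libraries known. Their counts are therefore a description, and no list was tested against these shares. IL1A and IL1B encode interleukin-1α and interleukin-1β, the ligands of the interleukin-1 receptor. IL1A was at 0.41, 0.36 and 0.29 FPKM in 231-BR cells and at 15.0, 14.3 and 13.7 FPKM in MDA-MB-231 cells, a log2 difference of -5.0 (standard error 0.101, limma adjusted p = 7.5e-11). IL1B was at 0.80, 0.82 and 1.02 FPKM against 13.8, 12.6 and 12.7 FPKM, a log2 difference of -3.75 (standard error 0.090, limma adjusted p = 2.4e-10).

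IL6, the cytokine interleukin-6, fell to 0.297 ± 0.076 from 4.77 ± 0.159 FPKM (SD, n = 3 per line), with a log2 difference of -3.64. The other genes that fell were LIF, a cytokine of the interleukin-6 family, with -2.24, TLR2, a receptor of bacterial lipoproteins, with -2.13, and the interleukin-6 receptor IL6R, with -1.07. The 2 genes that rose were IL18, a cytokine of the interleukin-1 family, from 6.07 ± 0.342 to 75.2 ± 1.43 FPKM (SD, n = 3 per line, log2 difference 3.61), and OSMR, the oncostatin M receptor, with a log2 difference of 1.14. TNF, which encodes tumour necrosis factor, was under 1 FPKM in both lines and so could not be called. It was at 0.02, 0.02 and 0 FPKM in 231-BR libraries and at 0.25, 0.27 and 0.29 FPKM in MDA-MB-231 libraries.

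In the list of NF-kB subunits and regulators all 18 genes were tested, 8 fell and 0 rose, and the median log2 difference was -0.90. The largest decreases were in BCL3, a nuclear partner of NF-kB p50 and p52 (log2 difference -2.56), NFKBIE, an inhibitor that retains NF-kB in the cytoplasm (-2.18), RELB, a subunit of the alternative pathway (-2.13), and NFKBIA, the inhibitor IkBα (-1.66), all with a limma adjusted p of at most 7.9e-08. NFKBIA was at 21.1, 20.7 and 20.4 FPKM in 231-BR cells and at 66.6, 63.1 and 67.0 FPKM in MDA-MB-231 cells. BIRC3, NFKBIZ, TNIP1 and NFKB2 were the other genes that fell.

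The subunits of the classical dimer, named here after their values were seen, did not pass the criteria. RELA (p65) was at 48.6 ± 0.144 FPKM in 231-BR cells against 56.9 ± 1.34 in MDA-MB-231 cells, a log2 difference of -0.23, and NFKB1 (p50) at 21.5 ± 0.905 and 20.8 ± 0.251 FPKM, a log2 difference of 0.04 (SD, n = 3 per line). Nuclear entry of NF-kB was not measured.

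Of the 14 AP-1, C/EBP and EGR factors, 2 rose and 0 fell. JUND, an AP-1 subunit, rose from 6.47 ± 0.503 to 31.4 ± 2.14 FPKM and the immediate early factor EGR1 from 0.660 ± 0.087 to 2.60 ± 0.089 FPKM (SD, n = 3 per line), with log2 differences of 2.26 and 1.83. The median of the list was 0.27. By a limma adjusted p under 0.05 alone, 8 genes were higher and 6 lower, where 77.3% of all genes tested passed in either direction. The summed FPKM of the list was 590 to 613 in 231-BR libraries and 731 to 754 in MDA-MB-231 libraries. Most of this sum was the AP-1 subunit FOSL1, named here after its value was seen. FOSL1 was at 406 ± 8.86 FPKM in 231-BR cells against 536 ± 14.3 in MDA-MB-231 cells (SD, n = 3 per line).

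Among the 11 factors that act on the stability of AU-rich mRNAs, 1 rose and 1 fell. ZFP36L1, which promotes the decay of such mRNAs, was at 152, 143 and 145 FPKM in 231-BR cells and at 57.7, 56.9 and 55.9 FPKM in MDA-MB-231 cells, a log2 difference of 1.37 (standard error 0.029, limma adjusted p = 9.6e-11). ZC3H12A, which encodes the endonuclease regnase-1 and is itself induced by interleukin-1, was at 1.82, 1.72 and 1.52 FPKM against 13.0, 13.4 and 13.2 FPKM, a log2 difference of -2.90 (standard error 0.069, limma adjusted p = 2.2e-10). Half-lives of the chemokine mRNAs were not measured.

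Downstream of CXCR1 and CXCR2, 19 of 20 signalling and desensitisation genes were tested, 3 rose and 1 fell, where 8.07% and 2.90% of all genes tested did so, and the median log2 difference was 0.05. PIK3CG, the catalytic subunit of PI3-kinase γ, ARRB1, which encodes β-arrestin 1, and RGS2, a regulator of G protein signalling, rose by 1.32, 1.14 and 1.00 on the log2 scale. RAC2, a small GTPase, fell to 60.6 ± 1.55 from 146 ± 0.386 FPKM (SD, n = 3 per line), a log2 difference of -1.27. GNA15, a G protein α subunit named here after its value was seen, was just short of the criterion with a log2 difference of -0.98. With the first 231-BR library or the third MDA-MB-231 library left out, 2 genes of the list fell in place of 1.

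Of 15 proteases that can trim ELR chemokines, 8 were tested, 1 rose and 0 fell. It was MMP1, interstitial collagenase, whose log2 difference was 5.51. Of 19 genes in the list of other attractants and growth factors of neutrophils, 11 were tested, 7 fell and 0 rose, with a median log2 difference of -3.18. The list also holds genes of other roles, such as the adhesion molecule ICAM1 and ALOX5AP of leukotriene synthesis. CSF3, which encodes the granulocyte colony-stimulating factor, was at 2.74, 2.86 and 2.57 FPKM in 231-BR cells and at 25.2, 25.8 and 26.7 FPKM in MDA-MB-231 cells, a log2 difference of -3.20 (standard error 0.051, limma adjusted p = 1.9e-11).

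The complement component C3 fell to 0.080 ± 0.044 from 13.7 ± 0.512 FPKM (SD, n = 3 per line), a log2 difference of -6.29. ALOX5AP, which encodes the 5-lipoxygenase activating protein of leukotriene synthesis, was at 1.48, 1.65 and 1.64 FPKM in MDA-MB-231 cells and is listed at 0 in each 231-BR library. ICAM1, an adhesion molecule for leukocyte integrins, fell from 26.5 ± 0.698 to 2.80 ± 0.105 FPKM (SD, n = 3 per line), and CSF2, CSF1 and SAA1 were the other genes that fell. SAA1 has a near copy, SAA2, with which it may share reads.

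**Figure D4:**
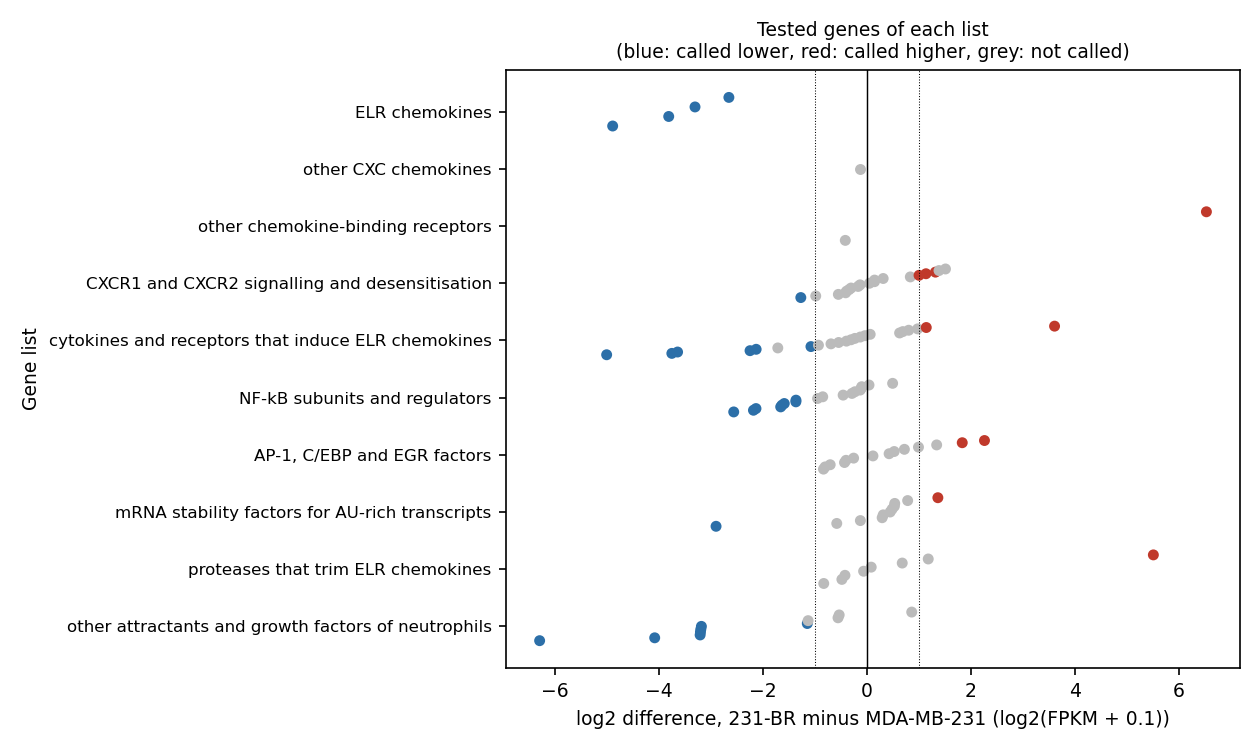
Log2 difference (231-BR minus MDA-MB-231, log2(FPKM + 0.1)) of each tested gene, with the 4 ELR chemokines in the top line and a line for each list below, blue for called lower, red for called higher and grey for neither, and dotted lines at -1 and 1. The ELR chemokines lie between -4.89 and -2.65, and the called genes of the NF-kB list between -2.56 and -1.36, all on the same side.

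The genes most like CXCL1 and CXCL8 were ranked by the root mean square difference between log2(FPKM + 0.1) values over the 6 libraries, each gene centred on its own mean, among 11418 genes. Nearest to CXCL1 were C1orf115 (0.073), TNIP3 (0.123), GLB1L2 (0.124), RHOD (0.154) and LSR (0.201). Nearest to CXCL8 were PCDHGB2 (0.064), CYP1B1 (0.105), IL1B (0.110), SORCS2 (0.115) and TSPYL5 (0.137). PCDHGB2 shares exons with other genes of the γ-protocadherin cluster, so that its reads may be divided among them.

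These ranks depended on the pseudocount, since RHOD and TSPYL5 are listed at 0 in each 231-BR library and C1orf115 and SORCS2 had a mean of 0.0033 FPKM there. With a pseudocount of 0.01, 2 of the 5 genes nearest to CXCL1 (LSR and TNIP3) and 3 of the 5 nearest to CXCL8 (IL1B, CYP1B1 and PCDHGB2) were again among the nearest 5. With a pseudocount of 1 the numbers were 0 and 1 (CYP1B1), and IL1B was the 12th nearest to CXCL8. Both settings were chosen after the data had been seen. With 6 libraries of 2 lines, the measure reflects mainly the difference between the lines.

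**Figure D5:**
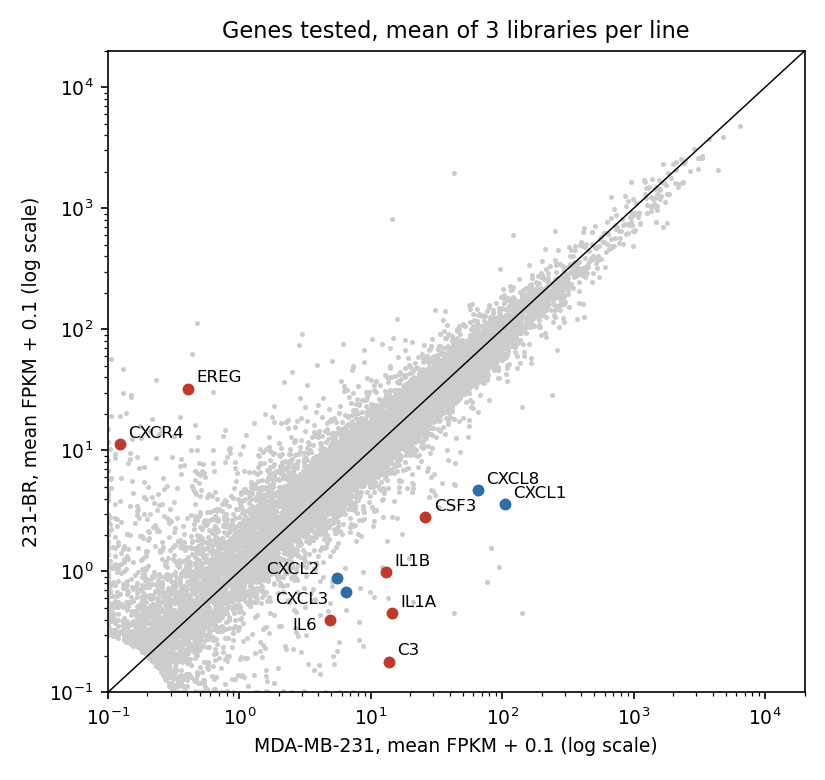
Mean FPKM + 0.1 of the 13465 genes tested in MDA-MB-231 (x axis) and 231-BR cells (y axis), both on log scales, with the line of equal values; ELR ligands are in blue and 7 other genes of the text in red. CXCL1 and CXCL8 lie below the line at 105 and 65.5 FPKM in MDA-MB-231, on the same side as IL1A, IL1B, IL6, CSF3 and C3, and CXCR4 and EREG lie above it.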

How the data were processed

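The authors filtered reads with SOAPnuke and aligned them with HISAT2 2.0.4 to the genome and Bowtie2 2.2.5 to a set of transcripts. The submitters' notes name GRCh38.p12. The deposited values are FPKM per gene with 2 decimals, and the program that computed them is not given in the sources used here. FPKM values do not give the sequencing depth, which is therefore unknown here, and no test on counts could be run. Fragments shared by similar genes may have been divided in a way that is not stated.

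Values were set to log2(FPKM + 0.1), and the difference between the lines was estimated by limma 3.58.1 in R 4.3.3 (lmFit, eBayes with trend) for the 13465 of 17039 genes whose FPKM averaged at least 0.1 over the libraries, with Benjamini-Hochberg adjustment. A gene was called, or said to rise or fall, at an adjusted p under 0.05, an absolute log2 difference over 1 and an average of 1 FPKM or more in either line. In data simulated from these values 199 of 200 changed genes were recovered and 1 of 13197 unchanged genes was called. The changed genes were drawn from those well above the filter, and each planted difference was beyond the criterion. All other genes were simulated without any difference. The simulation therefore does not cover genes of low FPKM or differences near the criterion. An exact permutation test of 3 against 3 libraries cannot give a p below 0.1.

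The members and lists were chosen with earlier results of these data known. Named genes are the members, up to 4 genes with the largest differences among those called in each list, the genes behind counts of 5 or fewer, flanking genes of at least 1 FPKM in either line, and the 5 genes nearest to CXCL1 and to CXCL8. Alternatives were other pseudocounts, filters, scalings and criteria, eBayes without the trend, a replicate term and each library left out. Python 3.11.15, pandas 2.3.3 and matplotlib 3.10.9 were used for sequences and figures, with promoters from RefSeq (GRCh38.p14) and coordinates from GENCODE release 29.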

Additional observations from a re-analysis of the deposited data

How the results depend on the processing

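CXCL1, CXCL2, CXCL3 and CXCL8 were lower in 231-BR cells under each alternative. With a pseudocount of 1 their log2 differences were -4.57, -1.85, -2.23 and -3.57, and that of the summed ligands -4.14. With quantile normalization CXCL2 was at -2.97 and the sum at -4.40, and CXCL2 and CXCL3 summed, an alternative chosen after seeing the data, gave -3.05. With each library left out, CXCL1 ranged from -4.97 to -4.84, CXCL2 from -2.71 to -2.55, CXCL3 from -3.56 to -3.05, CXCL8 from -3.86 to -3.71 and the sum from -4.30 to -4.20.

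Over all genes, 1086 were called higher and 390 lower. The numbers were 720 higher with a pseudocount of 1, 625 lower with quantile normalization, 630 higher and 238 lower with a mean of 1 FPKM in both lines, and 599 and 197 with an absolute log2 difference over 1.5. Higher genes made up 73.6% of the calls, and 55.5% after quantile normalization, which moved the median of all genes from 0.08 to -0.06. With a pseudocount of 1, 1 receptor signalling gene was higher and 0 flanking genes lower. Median-of-ratios scaling gave 2 receptor signalling genes lower, and quantile normalization 1 higher and 2 lower, and 1 protease lower. With a mean of 1 FPKM in both lines, 0 other receptors and 1 AP-1, C/EBP or EGR factor were higher. Under the same criterion 2 genes of the induction list and 3 of the list of other attractants were lower. Of the flanking genes 1 was then higher and 0 lower. With an absolute log2 difference over 1.5, 0 receptor signalling genes were higher and 0 lower. In that setting 1 gene of the induction list and 0 stability factors were higher, and 0 flanking genes lower. With a library left out, 1 to 2 receptor signalling genes were lower. The genes nearest to CXCL1 and CXCL8 changed with the pseudocount, as given with them.

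Same-numbered libraries did not deviate together (correlations of 0.087, -0.040 and -0.106 across genes), so the numbers were not taken as pairs, and with the replicate block 1086 genes were higher and 391 lower. FPKM without counts leaves the precision of values near 0, such as CXCL5, unknown.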

Other observations

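The genes whose promoter holds the kB letters GGAATTTCC within 250 bases before the start, a list drawn up after the data had been seen, were described besides the chemokines. Of 10920 tested genes with a promoter in the table, 56 held the letters, 9 of which were called lower in 231-BR cells and 7 higher. Without the 4 ELR ligands, 5 of 52 were lower (9.62%) and 7 were higher (13.5%), and the median log2 difference was -0.11. Among the genes without the letters 2.66% were lower and 7.59% higher, with a median of 0.07. The 5 genes called lower were COL7A1, which encodes the collagen of anchoring fibrils (log2 difference -5.21), ICAM1 (-3.20), NFKBIA (-1.66), NFKBIZ (-1.59) and OPTN, which encodes the autophagy receptor optineurin (-1.25). The 7 called higher were PLLP, SLC9A5, ZNF799, OAS3, ZNF442, DUSP6 and ACYP2, with log2 differences from 1.06 to 3.24. Genes with the letters were thus found on both sides, and no test of the list was run.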
